A study of Mus musculus with 16 samples.

Results

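The collagen chain genes of the mouse gastrocnemius, a calf muscle, are the 44 genes whose symbol is Col, a type number, the letter a and a chain number, out of 21923 genes in a poly(A) RNA-seq table of 16 libraries. By the type of collagen they build they fall into 11 fibrillar chains, 6 chains of basement membrane type IV, 6 chains of beaded filament type VI, 9 fibril-associated (FACIT) chains, 2 multiplexins, 3 network chains of types VIII and X, 4 transmembrane chains and 3 others. A cartilage list of 7 chains (types II, IX, X and XI) cuts across these classes.

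Each of the 4 groups held 4 libraries, each from the gastrocnemius of a mouse killed on day 30. NOR mice carried no tumor and received PBS. CAC (cachexia) mice bore a subcutaneous tumor of unmodified cancer cells and received PBS, and AM mice bore the same kind of tumor and received amiloride, a sodium-channel and sodium-proton exchange blocker used in the study against exosome release, at 2 mg/kg a day from day 9. KD mice received PBS and bore tumors grown from cells with Rab27a and Rab27b, small GTPases of exosome secretion, knocked down by shRNA. That knock-down lay in the tumor cells, so the muscle RNA holds no check of it. In every group, replicates 1 and 2 were labelled C57BL/6 and replicates 3 and 4 BALB/c, 6 to 8 weeks old at purchase, and the tumor-bearing C57BL/6 mice carried Lewis lung carcinoma (LLC) cells and the BALB/c mice CT26 colon carcinoma cells. Strain and tumor line therefore change together and cannot be told apart. The labels describe the C57BL/6 mice as male and the BALB/c mice as male and female.

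Collagens are secreted as trimers in which 3 alpha chains wind into a triple helix. Types I, III and V assemble into the fibrils of the sheaths around muscle fibres and of tendon, where they carry tension. Type IV forms the net of the basement membrane around every muscle fibre and capillary, type VI makes beaded filaments that link that membrane to the fibrils, and the FACIT chains sit on fibril surfaces. Fibroblasts of the connective tissue make most fibrillar and type VI collagen, while type IV is also made by endothelium and muscle fibres. In bulk RNA from a tissue, fewer cells of a type and less RNA per cell cannot be told apart.

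Library totals lay between 35913190 and 61032708 counts, and levels are given as CPM (the count scaled to its library total after TMM) in the order of replicates 1 to 4. The summed CPM of 6 muscle fibre genes was 52180 to 167900 over all libraries, and markers of the labelled tissue were thus abundant in every library. The strain labels were at odds with genes that are known to differ between inbred lines. Ifi202b stood at 2.61 to 5.93 CPM in 4 libraries (CAC replicate 4, AM replicates 1 and 3 and KD replicate 1) and at 0 to 0.0734 CPM in the other 12, and Nnt (ENSMUSG00000025453) was at 44.0 to 112.4 CPM in those 4 and at 5.73 to 21.4 CPM in the rest. A second Nnt entry (ENSMUSG00000116207) overlapped, at 50.7 to 202 CPM in the 4 and 19.1 to 60.3 CPM in the rest. Of the 4, 2 were labelled C57BL/6 and 2 BALB/c, and 3 genes had at least 50 counts on one side of that split and at most 5 on the other, against 0 genes for the split by labelled strain. The 4 libraries were set apart by Ifi202b itself, so the count of 3 is not independent of that gene. The split by labelled strain was also of another size, 8 against 8, and the 2 counts are no test of the labels. KD replicate 3 had 0 reads in 4 Y-linked genes that summed to 111 to 175 CPM elsewhere. Summed CPM of 4 lymphocyte genes was 0.205 to 1.58 in 5 libraries (NOR replicate 1, CAC replicates 1 and 4 and KD replicates 2 and 3) and at least 17.98 in the others. Strains are therefore named below as labelled, and values without the libraries that stood apart are given where they change a result.

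**Figure D1:**
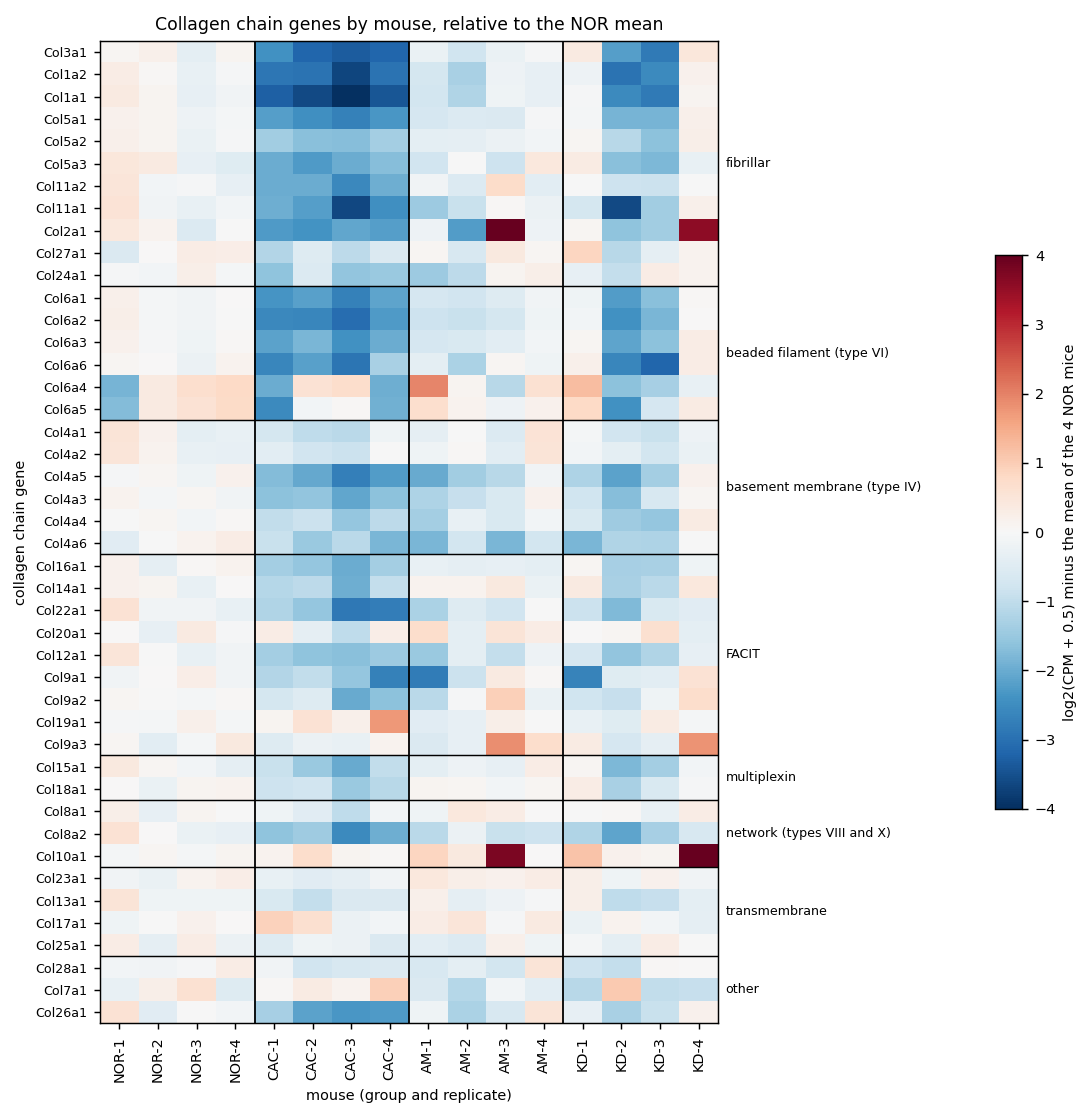
Each cell shows log2(CPM + 0.5) of 1 collagen chain gene (rows, ordered by class) in 1 library (columns, by group and replicate) minus the NOR mean of that gene, on a colour scale capped at 4 in either direction. Most fibrillar and type VI rows are low in all 4 CAC libraries and in KD replicates 2 and 3, and nearer the NOR mean in the AM libraries and KD replicates 1 and 4, while Col6a4 and Col6a5 vary within every group.

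Per unit of gene length, on the FPKM scale of the deposited table, Col3a1 had the highest level of any collagen chain in NOR muscle, at 366, 454, 290.2 and 428 FPKM. Col1a2 followed at 300, 288, 220.1 and 271 FPKM, and Col4a1 at 312, 286, 189 and 204 FPKM, so that the ranges of these 3 overlapped. In CAC muscle Col4a1 came first, at 146, 123, 146 and 234 FPKM, above Col4a2 at 55.2, 45.2, 52.0 and 80.5 FPKM and Col3a1 at 69.8, 42.5, 48.3 and 45.6 FPKM. The order among the top chains depends on the length used. The lengths implied by the table were 4.28 times shorter than the union of annotated exons for Col3a1 and 4.01 times shorter for Col1a2, and with exon-union lengths Col1a1 came first in NOR muscle and Col3a1 at rank 3, while Col4a1 and Col4a2 still led in CAC muscle.

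All collagen chains together took 0.559%, 0.552%, 0.414% and 0.486% of the counts of each library in NOR mice and 0.154%, 0.132%, 0.138% and 0.197% in CAC mice. In AM mice they took 0.408%, 0.338%, 0.414% and 0.509%, above every CAC library, and in KD mice 0.584%, 0.141%, 0.141% and 0.562%. The make-up of the collagen RNA shifted with its amount. Fibrillar chains made up 52.0% to 56.7% of the collagen CPM in NOR mice and 20.1% to 27.9% in CAC mice, while type IV chains made up 20.4% to 27.0% and 48.5% to 59.6%. In AM mice fibrillar chains took 41.9% to 58.4% and type IV chains 20.9% to 35.4%. In KD mice fibrillar chains took 56.7%, 32.9%, 30.3% and 59.7%, so replicates 2 and 3 fell between the NOR and CAC ranges.

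The first comparison asks how tumor-bearing muscle differs from normal muscle. In CAC mice relative to NOR mice, 25 of 43 tested collagen chains were downregulated and 0 were upregulated, where a call needs an FDR of at most 0.05 in edgeR over all genes and a change of at least 1.5-fold. Over all 14666 genes tested, 5.13% were called lower and 4.32% higher. The members' median log2 fold change was -1.60, beside 0.01 over all genes. The 4 CAC mice all lay below the 4 NOR mice in 29 members, against 10.8% of all genes. At an unadjusted p of at most 0.05, 31 members were lower (13.6% of all genes) and 1 was higher (15.5%). DESeq2 called 31 members lower and 0 higher (7.41% and 5.75% of all genes), and limma-voom called 28 lower and 0 higher (5.63% and 4.28%). The 25 calls covered 10 of 11 fibrillar chains, 4 of 6 type VI chains, both multiplexins, 3 of 6 type IV chains, 4 of 9 FACIT chains, 1 of 2 tested network chains, 1 of 3 others and 0 of 4 transmembrane chains. In the transmembrane class 1 chain had an unadjusted p of at most 0.05, and DESeq2 called 1 lower and limma-voom 0.

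**Figure D2:**
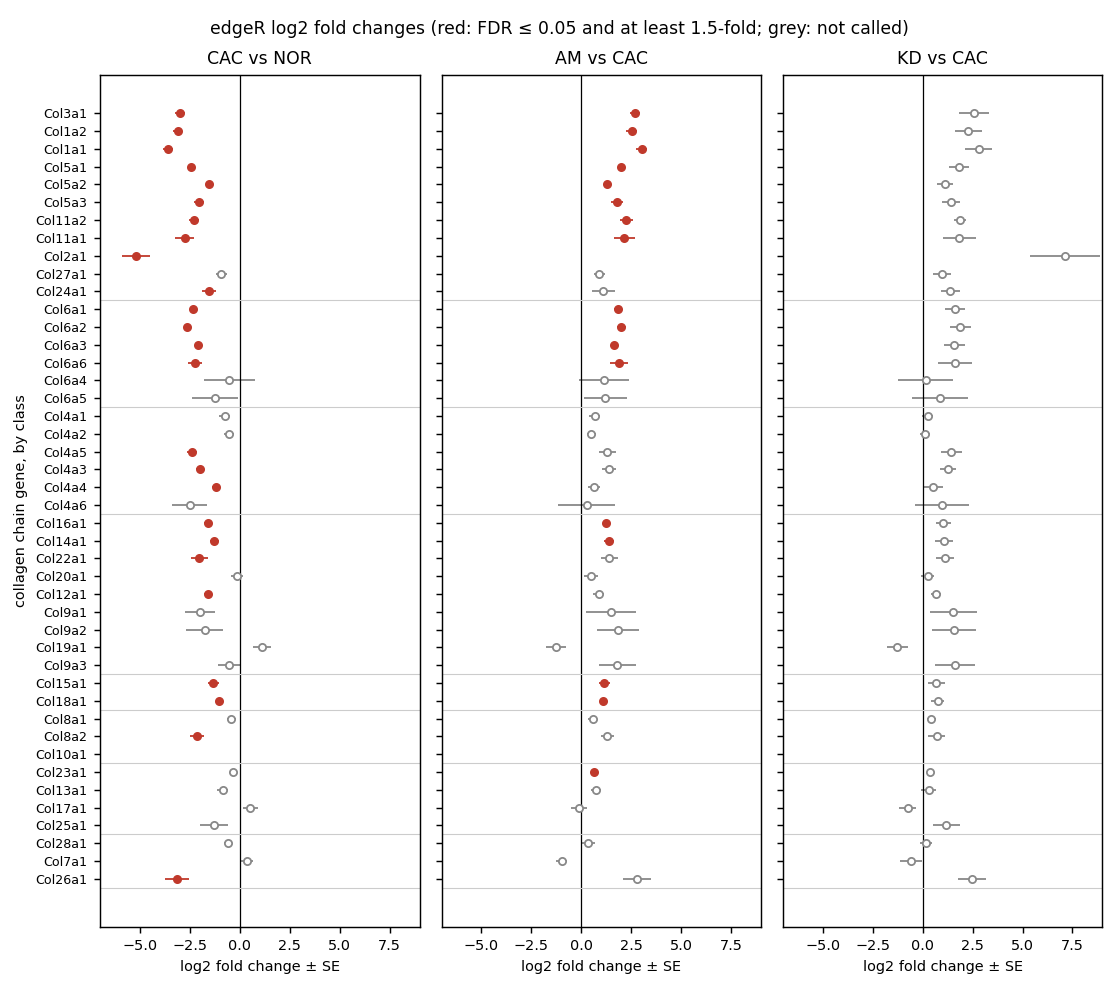
Log2 fold change with its SE for every tested collagen chain (rows, by class) in 3 panels, CAC relative to NOR, AM relative to CAC and KD relative to CAC, each over 4 mice a group, with calls in red. The panels hold 25 lower calls, 17 higher calls and 0 calls.

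Type I collagen, the main fibril of tendon and muscle sheaths, is a trimer of 2 alpha-1 chains and 1 alpha-2 chain. Col1a1 (ENSMUSG00000001506, chr11:94936224-94953042 in GRCm38), the alpha-1 chain, was at 838, 695, 516 and 593 CPM in NOR mice and 67.3, 52.7, 38.4 and 60.4 CPM in CAC mice. Its log2 fold change of -3.61 ± 0.23 (FDR 0.000728) was the most negative among chains of over 10 CPM. Col1a2 (ENSMUSG00000029661, chr6:4504814-4541544), the alpha-2 chain, was at 1054, 881, 694 and 836 CPM and 116, 109, 67.4 and 110.2 CPM, a log2 fold change of -3.12 ± 0.22 (FDR 0.000728). Every CAC mouse lay below every NOR mouse for both chains. Col3a1 (ENSMUSG00000026043, chr1:45311538-45349706), whose homotrimers co-assemble with type I in elastic tissues, was at 952, 1029, 677 and 977 CPM and 169, 98.8, 89.5 and 98.9 CPM, a log2 fold change of -3.0 ± 0.24 (FDR 0.00129). Replicate 1 was the highest CAC mouse and still lay below the lowest NOR mouse.

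The 250 bases before the RefSeq start (GRCm38.p6, + strand) of a type I and a type III chain gene are shown because both genes fell by about 3 on the log2 scale in CAC mice and are abundant in muscle. Capitals mark the CCAAT box, the Sp1-type word GGGCGG, the TATA-type word TATAAA and the Smad-type word CAGAC on either strand.
Col1a2, chr6:4505368-4505617: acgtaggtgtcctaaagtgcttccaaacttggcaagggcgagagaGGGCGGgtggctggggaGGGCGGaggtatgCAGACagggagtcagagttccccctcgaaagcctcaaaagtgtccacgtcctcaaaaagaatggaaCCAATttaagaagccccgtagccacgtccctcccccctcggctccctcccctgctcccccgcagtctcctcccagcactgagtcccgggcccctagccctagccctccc
Col3a1, chr1:45311288-45311537: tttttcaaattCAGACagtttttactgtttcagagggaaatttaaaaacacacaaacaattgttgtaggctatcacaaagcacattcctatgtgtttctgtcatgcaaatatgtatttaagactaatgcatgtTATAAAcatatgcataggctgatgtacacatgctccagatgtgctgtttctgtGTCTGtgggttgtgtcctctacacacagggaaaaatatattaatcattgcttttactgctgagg
The Col1a2 stretch lies inside the longer gene model given above, which starts further upstream. CCAAT was present before 35.3% of the 17 members called lower in CAC mice that had a promoter entry, before 38.9% of the 18 other members with one and before 37.5% of all 27025 genes. GGGCGG was present before 64.7%, 55.6% and 35.4% of these sets, TATAAA before 11.8%, 16.7% and 14.3%, and CAGAC before 47.1%, 50% and 45.8%. In all, 35 of the 44 members had an entry. These are matches of letters in a window and carry no measurement of binding.

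Type V and type XI chains co-assemble into the core of type I and type II fibrils and limit fibril width. Col5a1 was at 142, 137, 109.8 and 121 CPM in NOR mice and 27.3, 22.9, 19.2 and 24.8 CPM in CAC mice, a log2 fold change of -2.44 ± 0.14 (FDR 0.000728). Its usual partner Col5a2 was at 129, 122, 95.0 and 109 CPM and 42.4, 34.8, 34.0 and 43.6 CPM, with -1.56 ± 0.14 (FDR 0.00145). Col5a3, the remaining chain of the type, was at 122, 114, 70.3 and 63.6 CPM and 21.9, 18.1, 21.9 and 27.1 CPM, with -2.06 ± 0.25 (FDR 0.00337). No mouse of one group reached the range of the other in these 3 chains. Col11a1 was at 19.1, 11.48, 10.3 and 11.9 CPM and 2.94, 2.40, 0.573 and 1.94 CPM, with a log2 fold change of -2.77 ± 0.46 (FDR 0.00867). Col11a2 was at 25.4, 16.8, 17.4 and 14.4 CPM and 4.24, 4.19, 2.59 and 4.27 CPM, with -2.29 ± 0.24 (FDR 0.00232). The lowest CAC mouse for both type XI chains was replicate 3.

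Col2a1, the chain of cartilage fibrils, was at 2.98, 2.36, 1.29 and 2.08 CPM in NOR mice and 0.0459, 0, 0.111 and 0.0632 CPM in CAC mice, the latter from 2, 0, 6 and 4 counts. The fitted log2 fold change was -5.20 ± 0.68 (FDR 0.00412), and its size rests on these few CAC counts. Col24a1, a minor fibrillar chain, was at 3.44, 3.27, 4.24 and 3.32 CPM and 0.825, 2.26, 0.851 and 0.948 CPM, with -1.55 ± 0.36 (FDR 0.0249). Replicate 2 stood above the other CAC mice, and the call was lost when any 1 of 6 libraries (NOR replicates 1 to 3 and CAC replicates 1, 3 and 4) was left out (FDR 0.0534 to 0.0726). Col27a1, the other minor fibrillar chain, was the class member not called by edgeR, with a log2 fold change of -0.93 ± 0.26 (FDR 0.0503) and overlapping ranges of 3.70 to 7.22 CPM and 2.32 to 3.96 CPM. DESeq2 and limma-voom both called it lower (FDR 0.00898 and 0.0447) and with it all 11 fibrillar chains.

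The main type VI chains, alpha-1 to alpha-3, moved together. Col6a1 (ENSMUSG00000001119) was at 328, 268, 257 and 289 CPM in NOR mice and 55.2, 62.3, 43.0 and 65.2 CPM in CAC mice, a log2 fold change of -2.35 ± 0.16 (FDR 0.000728). Col6a2 (ENSMUSG00000020241), which lies next to it on chr10 in the same direction, was at 289, 232, 221 and 239 CPM and 40.3, 39.2, 29.4 and 50.01 CPM, with -2.63 ± 0.18 (FDR 0.000728). Col6a3 (ENSMUSG00000048126), the long chain that completes the trimer, was at 204, 176, 159 and 187 CPM and 40.9, 50.8, 32.9 and 45.5 CPM, with -2.10 ± 0.15 (FDR 0.000728). All CAC mice lay below all NOR mice in each. Among the chains that can replace alpha-3, Col6a6 was at 20.9, 20.2, 16.7 and 22.0 CPM and 2.87, 4.03, 2.20 and 7.75 CPM, with -2.25 ± 0.37 (FDR 0.00835). Its chr9 neighbours Col6a4 and Col6a5 were not called, with -0.54 (FDR 0.836) and -1.24 (FDR 0.544). Col6a4 was at 0.103, 2.32, 2.98 and 3.30 CPM in NOR mice and 0.0459, 2.73, 3.05 and 0.0632 CPM in CAC mice, and Col6a5 at 0.388, 3.26, 3.91 and 4.50 CPM and 0, 2.24, 2.52 and 0.269 CPM. Both were near 0 in NOR replicate 1 and CAC replicates 1 and 4, which were also among the 5 libraries near 0 in lymphocyte genes. The part of this difference in the result was not tested.

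**Figure D3:**
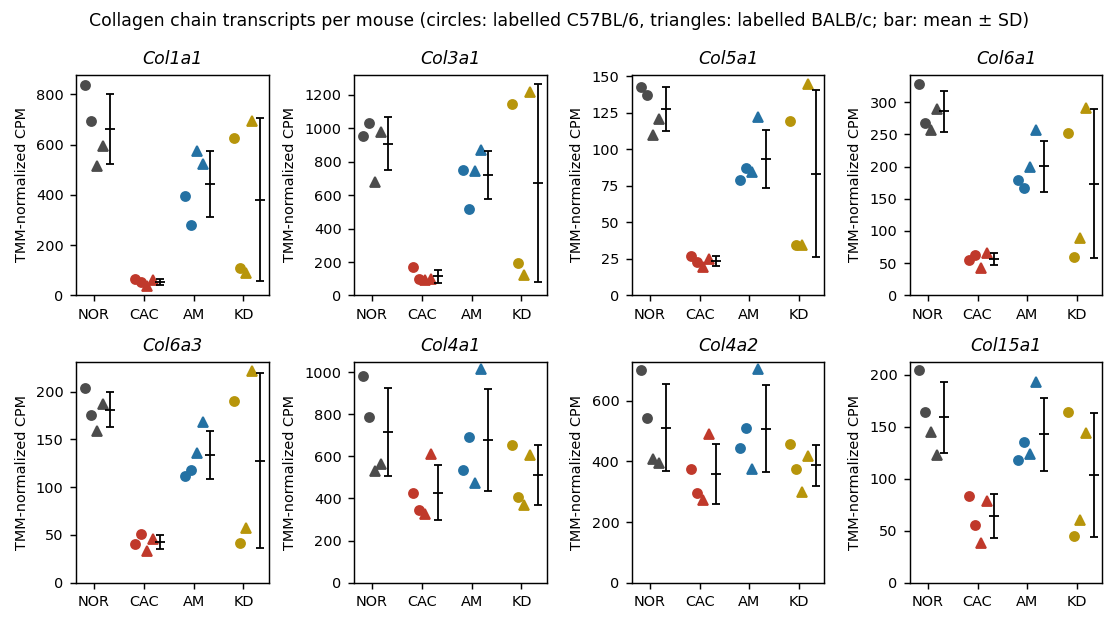
CPM, on linear axes from 0, of 8 chains (Col1a1, Col3a1, Col5a1, Col6a1, Col6a3, Col4a1, Col4a2 and Col15a1) in each of the 16 mice by group, with circles for replicates 1 and 2 (labelled C57BL/6), triangles for replicates 3 and 4 (labelled BALB/c) and bars for mean ± SD. The groups CAC and NOR do not overlap in the panels of Col1a1, Col3a1, Col5a1, Col6a1, Col6a3 and Col15a1 and overlap in those of Col4a1 and Col4a2, and in the fibrillar and type VI panels KD replicates 2 and 3 lie near the CAC mice and replicates 1 and 4 near the NOR mice.

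Types XV and XVIII, the multiplexins, lie at basement membranes, and the end of type XVIII is the source of endostatin. Col15a1, which bridges the membrane of muscle fibres and capillaries to fibrils, was at 204, 164, 145 and 123 CPM in NOR mice and 83.6, 55.8, 38.1 and 78.6 CPM in CAC mice, a log2 fold change of -1.33 ± 0.26 (FDR 0.0156). Col18a1 was at 44.6, 36.8, 47.1 and 48.2 CPM and 24.7, 25.6, 15.4 and 20.1 CPM, with -1.05 ± 0.16 (FDR 0.00718). Neither overlapped between the groups.

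Among the 6 basement membrane chains edgeR called 3 lower, DESeq2 5 and limma-voom 4. Col4a1 (ENSMUSG00000031502, chr8:11198423-11312826) and Col4a2 (ENSMUSG00000031503, chr8:11312805-11449287) form the trimer found in all basement membranes. Col4a1 was at 982, 786, 532 and 563 CPM in NOR mice and 427, 346, 327 and 613 CPM in CAC mice, and its log2 fold change of -0.75 ± 0.27 (FDR 0.106) did not pass in edgeR or limma-voom (FDR 0.0904) but did in DESeq2 (FDR 0.0298). Col4a2 was at 699.6, 543, 408 and 394 CPM and 374, 295, 271 and 491 CPM, with -0.53 ± 0.26 (FDR 0.214), and was called by none of the 3 tools. CAC replicate 4 lay inside the NOR range for both. In the labelled C57BL/6 and BALB/c mice taken separately, Col4a1 gave log2 fold changes of -1.19 and -0.20 and Col4a2 -0.89 and -0.05, with an interaction of 1.05 for Col4a1 (unadjusted p = 0.0489 in edgeR, FDR 0.999). Both lie head to head on chr8 with starts 21 bases apart and share 22 exon bases, and whether the counting used strand is not given in the sources used here.

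Col4a3, Col4a4 and Col4a5 build the second type IV trimer, known from the kidney filter and also present at the neuromuscular junction. Col4a3 was at 7.51, 6.48, 7.16 and 6.12 CPM in NOR mice and 1.83, 1.97, 1.24 and 1.83 CPM in CAC mice, a log2 fold change of -1.99 ± 0.19 (FDR 0.00195), and 5.6% of its exon bases overlap another gene model. Col4a4 was at 7.79, 8.405, 7.28 and 8.20 CPM and 3.76, 4.10, 2.39 and 3.57 CPM, with -1.20 ± 0.18 (FDR 0.00603). Col4a5 was at 11.4, 12.5, 10.5 and 13.3 CPM and 3.23, 2.48, 1.35 and 2.15 CPM, with -2.38 ± 0.25 (FDR 0.00218). All 3 were lower in every CAC mouse than in any NOR mouse. Col4a6, which pairs with Col4a5 in smooth muscle membranes, was at 0.802, 1.27, 1.45 and 1.70 CPM and 0.459, 0.134, 0.333 and 0 CPM, with -2.50 ± 0.88 (FDR 0.0960). It had 0 reads in exactly the 4 libraries that held Ifi202b, CAC replicate 4 among the groups compared here, and 6 to 99 reads in the other 12. Over the libraries without Ifi202b alone its log2 fold change was -2.07 with an FDR of 0.0352.

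Each of these minor chains shares a start region with its neighbour. Col4a4 and Col4a3 lie head to head on chr1 with starts 72 bases apart, and Col4a6 and Col4a5 on chrX with starts 1309 apart. The 71 bases between the Col4a4 and Col4a3 gene models are shown (GRCm38.p6, strand of Col4a3) because they separate the starts of both genes, and they hold none of the 4 motifs searched.
Between Col4a4 and Col4a3, chr1:82586850-82586920: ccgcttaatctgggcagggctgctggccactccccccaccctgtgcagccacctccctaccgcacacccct

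Of 9 FACIT chains 4 were called lower, Col12a1, Col14a1, Col16a1 and Col22a1, and the 3 type IX chains, described with the cartilage chains, were not called by edgeR. Col12a1, on tendon and muscle sheath fibrils, was at 48.9, 34.8, 28.1 and 31.4 CPM in NOR mice and 13.3, 11.1, 10.7 and 12.4 CPM in CAC mice, a log2 fold change of -1.60 ± 0.19 (FDR 0.00322). Col14a1, which controls fibril growth in tendon, was at 37.9, 36.8, 27.6 and 34.5 CPM and 15.2, 16.1, 8.30 and 17.3 CPM, with -1.28 ± 0.22 (FDR 0.01000). Col22a1, the chain of the muscle-tendon junction, was at 51.5, 31.2, 31.4 and 27.8 CPM and 14.7, 11.4, 4.27 and 4.66 CPM, with -2.04 ± 0.43 (FDR 0.0194). NOR replicate 1 was the highest of all 16 mice for Col12a1 and Col22a1. Col16a1 was at 27.7, 19.1, 25.3 and 27.4 CPM and 9.33, 8.10, 5.90 and 9.21 CPM, with -1.62 ± 0.18 (FDR 0.00272). Groups did not overlap in any of these 4. Col19a1 was the 1 member with an unadjusted p of at most 0.05 in the higher direction, at 0.932, 0.902, 1.19 and 0.911 CPM and 1.10, 1.70, 1.20 and 4.41 CPM, a log2 fold change of 1.09 ± 0.46 (FDR 0.155). Col20a1 stayed at -0.14 (FDR 0.816).

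In the remaining classes, Col8a2, a chain of the hexagonal networks below endothelia, was at 11.8, 7.74, 6.31 and 5.93 CPM in NOR mice and 2.18, 2.55, 0.906 and 1.61 CPM in CAC mice, a log2 fold change of -2.15 ± 0.36 (FDR 0.00924). Its partner Col8a1 was at 17.6, 11.7, 15.9 and 14.6 CPM and 13.2, 10.7, 6.99 and 13.8 CPM, with -0.43 ± 0.23 (FDR 0.246) and overlapping groups. Col26a1 was at 4.19, 1.80, 2.64 and 2.44 CPM and 0.757, 0.224, 0.130 and 0.158 CPM, with -3.16 ± 0.61 (FDR 0.0142), and CAC replicate 1 stood above the other CAC mice. The transmembrane chains, Col13a1 of the neuromuscular junction, Col17a1 of epithelial hemidesmosomes, Col23a1 and Col25a1, gave log2 fold changes of -0.87 (FDR 0.0627), 0.51 (FDR 0.412), -0.35 (FDR 0.203) and -1.32 (FDR 0.257). Col7a1, the anchoring fibril chain of skin, and Col28a1 gave 0.36 (FDR 0.480) and -0.58 (FDR 0.0815). Col10a1 was not tested for lack of counts.

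The ratio of chains that share a trimer also shifted. The CPM of Col1a1 divided by that of Col1a2 was 0.760 ± 0.040 in NOR mice and 0.545 ± 0.044 in CAC mice (SD, n = 4), with ranges of 0.710 to 0.796 and 0.482 to 0.582. Col5a1 over Col5a2 was 1.12 ± 0.02 and 0.609 ± 0.050, and Col4a1 over Col4a2 was 1.40 ± 0.06 and 1.19 ± 0.05. Col6a1 over Col6a2 went the other way, at 1.17 ± 0.03 and 1.43 ± 0.12. None of these 4 ratios overlapped between NOR and CAC mice. Across types, Col3a1 over Col1a1 was 1.39 ± 0.22 and 2.09 ± 0.40, overlapping only at 1.64 to 1.65, and Col1a1 over Col4a1 was 0.940 ± 0.090 and 0.131 ± 0.028. In AM mice the Col1a1 to Col1a2 ratio was 0.773 ± 0.029 and lay above the CAC range in all 4 mice, as did Col5a1 over Col5a2 at 0.987 ± 0.125. Col4a1 over Col4a2 was 1.32 ± 0.10 with replicate 1 inside the CAC range, and Col6a1 over Col6a2 was 1.27 ± 0.06 with replicates 1 and 3 inside or at the edge of it. The Col1a1 to Col4a1 ratio was 0.409 to 1.21 in AM mice. In KD mice the ratios spread widely, at 0.616 to 1.015 for Col1a1 over Col1a2, 0.674 to 1.08 for Col5a1 over Col5a2, 1.08 to 1.46 for Col4a1 over Col4a2 and 1.11 to 1.33 for Col6a1 over Col6a2.

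The second comparison asks whether amiloride changed the muscle of tumor-bearing mice, and it uses the same CAC mice as the first, so that the directions of both are tied through them. In AM mice relative to CAC mice, 17 of 41 tested chains were upregulated and 0 downregulated, where 1.63% of all 14674 genes were called higher and 2.03% lower. The median log2 fold change was 1.28 over the members and 0.01 over all genes. At an unadjusted p of at most 0.05, 27 members were higher (9.47% of all genes) and 2 lower (12.2%). DESeq2 called 25 members higher and 1 lower (4.39% and 3.28% of all genes), and limma-voom called 16 higher and 0 lower (1.74% and 2.02%). The groups were apart in the higher direction in 21 members (6.05% of all genes) and in the lower direction in Col7a1 (9.27%). The 17 calls were 8 of 10 tested fibrillar chains, 4 of 6 type VI chains, both multiplexins, 2 of 9 FACIT chains, 1 of 3 tested transmembrane chains and 0 of 6 type IV chains. Of the type IV chains 3 had an unadjusted p of at most 0.05, and DESeq2 called 2 and limma-voom 0.

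Among the fibrillar chains, Col1a1 was at 395, 282, 574 and 521 CPM in AM mice, a log2 fold change of 3.02 ± 0.26 (FDR 0.00223) over the CAC values above. Col1a2 was at 529, 346, 749 and 679 CPM, with 2.52 ± 0.27 (FDR 0.00500), and Col3a1 at 748, 519, 742 and 868 CPM, with 2.67 ± 0.25 (FDR 0.00316). The lowest of the 4 mice was replicate 2 in each of these chains, and it still exceeded every CAC mouse. Col5a1 was at 78.9, 87.4, 84.6 and 122 CPM, with 1.99 ± 0.16 (FDR 0.00223). Col5a2 was at 86.4, 88.2, 96.0 and 105 CPM, with 1.28 ± 0.11 (FDR 0.00223), and Col5a3 at 51.8, 88.3, 49.7 and 120.2 CPM, with 1.80 ± 0.29 (FDR 0.0160). The Col5a3 call was lost without CAC replicate 1 (FDR 0.0562). Col11a1 was at 4.40, 6.63, 13.2 and 10.7 CPM, with 2.16 ± 0.51 (FDR 0.0491), a call lost when any 1 of the 8 libraries was left out (FDR 0.0548 to 0.1198). Col11a2 was at 16.4, 12.2, 30.4 and 13.5 CPM, with 2.25 ± 0.32 (FDR 0.0104), and replicate 3 was the highest mouse. Col24a1 was not called, at 0.974, 1.47, 3.86 and 4.27 CPM and 1.11 (FDR 0.297), with replicates 1 and 2 in the CAC range.

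The type VI calls were Col6a1, at 179, 167, 199 and 256 CPM in AM mice with 1.83 ± 0.17 (FDR 0.00320), and Col6a2, at 137, 132, 151 and 216 CPM with 2.01 ± 0.20 (FDR 0.00385). They also took in Col6a3, at 112, 118, 136 and 168 CPM with 1.66 ± 0.17 (FDR 0.00385), and Col6a6, at 15.2, 8.02, 21.2 and 17.7 CPM with 1.89 ± 0.43 (FDR 0.0454). AM mice lay between the CAC and NOR ranges in Col6a1 and Col6a2, without overlap on either side. The margin to NOR mice was small, with highest AM values of 256 and 216 CPM and lowest NOR values of 257 and 221 CPM. Neither chain was called against NOR mice (FDR 0.518 for both). The Col6a6 call was lost without any 1 of 7 libraries, CAC replicate 4 being the exception (FDR 0.0520 to 0.122). Col6a4 was at 7.86, 1.83, 0.506 and 2.85 CPM and Col6a5 at 4.16, 2.71, 2.02 and 2.79 CPM, not called at 1.14 (FDR 0.664) and 1.20 (FDR 0.573). The multiplexin Col15a1 was at 118, 136, 123 and 193 CPM, with 1.16 ± 0.26 (FDR 0.0407), a call lost without any 1 of the 8 libraries (FDR 0.0553 to 0.101). Col18a1 was at 47.9, 46.0, 40.8 and 46.0 CPM, with 1.08 ± 0.16 (FDR 0.0111).

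The FACIT calls were Col14a1, at 37.5, 37.2, 45.0 and 28.0 CPM with 1.39 ± 0.23 (FDR 0.0163), and Col16a1, at 19.9, 19.0, 19.3 and 18.7 CPM with 1.25 ± 0.15 (FDR 0.00642). The Col14a1 call was lost without CAC replicate 1 or AM replicate 3 (FDR 0.0503 and 0.0541). Col12a1 was at 12.2, 26.3, 17.7 and 30.4 CPM and Col22a1 at 14.0, 23.8, 20.3 and 34.4 CPM, not called by edgeR at 0.87 (FDR 0.0942) and 1.41 (FDR 0.108), and in both AM replicate 1 lay inside the CAC range. Of the FACIT chains DESeq2 called 4 higher and limma-voom 2. Col23a1, a transmembrane chain, was at 5.23, 4.68, 4.98 and 5.89 CPM in CAC mice and 8.85, 7.79, 7.40 and 8.24 CPM in AM mice, with 0.64 ± 0.14 (FDR 0.0394), a call lost without any 1 of 7 libraries, again all but CAC replicate 4 (FDR 0.0699 to 0.106). Col8a2 at 3.36, 6.49, 3.90 and 4.12 CPM and Col26a1 at 2.30, 0.819, 1.52 and 3.99 CPM did not overlap with CAC mice but missed the threshold in edgeR, at 1.31 (FDR 0.0700) and 2.79 (FDR 0.0604). Col8a1 was at 13.0, 19.99, 18.4 and 14.9 CPM, with 0.57 (FDR 0.172). Col7a1 was below every CAC mouse, at 4.23 to 9.09 CPM against 10.2 to 19.7 CPM, and was not called by edgeR at -0.97 (FDR 0.0862). DESeq2 called 1 network chain higher, and 1 chain higher and 1 lower in the class of Col7a1, Col26a1 and Col28a1. In both classes limma-voom called 0.

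For type IV, Col4a1 was at 536, 689.7, 475 and 1013 CPM in AM mice, with 0.67 ± 0.28 (FDR 0.210) relative to CAC mice, and Col4a2 at 443, 509.5, 374 and 706 CPM, with 0.51 ± 0.24 (FDR 0.268). Replicate 4 was the highest AM mouse for both. Col4a3 was at 2.59, 3.33, 4.26 and 7.70 CPM, above every CAC mouse, and had 1.38 ± 0.35 (FDR 0.0619). Col4a4 was at 2.77, 6.41, 5.02 and 7.27 CPM and Col4a5 at 2.59, 4.21, 5.23 and 10.7 CPM, with 0.64 (FDR 0.277) and 1.31 (FDR 0.132), and AM replicate 1 was in the CAC range for both. Col4a6 was at 0, 0.565, 0 and 0.558 CPM, with 0.27 (FDR 0.938).

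Over the libraries without Ifi202b alone, which leaves 2 AM and 3 CAC mice, edgeR called 0 members and 0% of all genes in either direction, with a median log2 fold change over the members of 1.26 beside 1.28 in all 8 mice. Col1a1 then had a log2 fold change of 2.92 with an FDR of 0.1004. With the replicate number as a block, 0 members and 0% of all genes were called as well, with a median of 1.26. In the comparison of CAC with NOR mice the block left 25 lower calls and 0 higher (4.14% and 3.63% of all genes), and the libraries without Ifi202b gave 26 and 0 (4.89% and 3.68%).

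The last comparison with CAC mice asks whether tumors grown from Rab27 knock-down cells left the muscle in another state, again against the same CAC mice. In KD mice relative to CAC mice, edgeR called 0 of 43 tested chains in either direction, where 0% of all 14593 genes were called higher and 0.00685% lower. DESeq2 called 9 members higher and 0 lower (1.7% and 0.737% of all genes), and limma-voom called 0 (share over all genes not given here). At an unadjusted p of at most 0.05, 19 members were higher (6.06% of all genes) and 1 lower (5.09%), and the median log2 fold change was 1.12 beside 0 over all genes. The 4 KD mice all lay above the 4 CAC mice in 6 members (3.71% of all genes), Col1a1, Col5a1, Col2a1, Col11a2, Col16a1 and Col26a1, and all below them in 0 (3.58%).

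The KD mice differed among themselves by more than the CAC mice did in the abundant fibrillar chains, with SDs of 324 and 12.4 CPM for Col1a1 and 591 and 36.7 CPM for Col3a1. Col1a1 was at 626, 111, 90.7 and 695 CPM in KD mice, with a log2 fold change relative to CAC mice of 2.80 ± 0.69 (FDR 0.267). Col1a2 was at 737, 109, 147 and 957 CPM, with 2.28 ± 0.68 (FDR 0.302), and Col3a1 at 1146, 195, 125 and 1217 CPM, with 2.56 ± 0.74 (FDR 0.288). Replicates 1 and 4 were above every NOR mouse for Col3a1, while replicates 2 and 3 were near the CAC mice. Col5a1 was at 119.5, 34.8, 34.4 and 145 CPM, with 1.82 ± 0.49 (FDR 0.270), Col5a2 at 118, 51.7, 36.2 and 134 CPM, with 1.13 (FDR 0.360), and Col5a3 at 112, 27.6, 25.4 and 71.7 CPM, with 1.41 (FDR 0.340). Col11a1 was at 7.73, 0.596, 4.62 and 14.9 CPM, with 1.83 (FDR 0.465), and Col11a2 at 18.0, 9.93, 9.77 and 17.9 CPM, with 1.86 ± 0.29 (FDR 0.139), the lowest FDR of any member in this comparison. Col24a1 was at 2.69, 1.61, 4.52 and 4.00 CPM, with 1.39 (FDR 0.340), and here replicate 3 was the highest.

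Type VI had the same spread, with Col6a1 at 252, 59.7, 89.6 and 291 CPM, 1.62 (FDR 0.302). Col6a2 was at 226, 44.8, 68.4 and 244 CPM, 1.88 (FDR 0.280), Col6a3 at 190.4, 41.3, 57.7 and 222 CPM, 1.59 (FDR 0.338), and Col6a6 at 23.1, 2.83, 1.77 and 24.4 CPM, 1.63 (FDR 0.529). Col6a4 was at 4.65, 0.199, 0.372 and 1.27 CPM and Col6a5 at 4.61, 0.0497, 1.34 and 3.17 CPM, with 0.15 (FDR 0.989) and 0.87 (FDR 0.892), both lowest in replicate 2. In KD mice Col15a1 was at 164, 44.7, 60.0 and 144 CPM and Col18a1 at 54.6, 17.7, 28.9 and 42.6 CPM, with 0.69 (FDR 0.614) and 0.75 (FDR 0.453). Col4a1 was at 655, 405, 371 and 607 CPM and Col4a2 at 458, 375, 299 and 416 CPM, a narrower spread, with 0.25 (FDR 0.816) and 0.11 (FDR 0.927). Col4a3 was at 3.70, 1.76, 4.15 and 7.14 CPM, Col4a4 at 4.96, 2.63, 2.40 and 9.98 CPM, Col4a5 at 4.77, 2.33, 4.32 and 13.4 CPM and Col4a6 at 0, 0.273, 0.261 and 1.25 CPM, all highest in replicate 4.

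The FACIT chains followed in part. Col14a1 was at 43.8, 13.5, 15.8 and 45.4 CPM in KD mice and Col16a1 at 25.9, 9.41, 9.69 and 21.7 CPM, with 1.06 (FDR 0.424) and 1.04 (FDR 0.360), again high in replicates 1 and 4. Col12a1 was at 21.7, 11.4, 14.9 and 27.7 CPM and Col22a1 at 18.8, 9.71, 22.5 and 25.3 CPM, with 0.67 (FDR 0.403) and 1.12 (FDR 0.419), and for Col22a1 replicate 3 was above replicate 1. Col8a1 was at 14.7, 15.3, 12.0 and 18.2 CPM, Col8a2 at 3.04, 1.39, 2.72 and 4.68 CPM, Col23a1 at 7.71, 5.81, 7.37 and 5.94 CPM and Col26a1 at 2.00, 0.795, 1.21 and 3.03 CPM, with 0.43 (FDR 0.545), 0.70 (FDR 0.598), 0.37 (FDR 0.497) and 2.47 (FDR 0.279). Col9a1, Col9a2 and Col9a3 had 1.52 (FDR 0.701), 1.56 (FDR 0.656) and 1.62 (FDR 0.592). The remaining tested chains outside the cartilage list, Col20a1, Col19a1, Col27a1, Col28a1, Col7a1, Col13a1, Col17a1 and Col25a1, had log2 fold changes between -1.27 and 1.19.

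**Figure D4:**
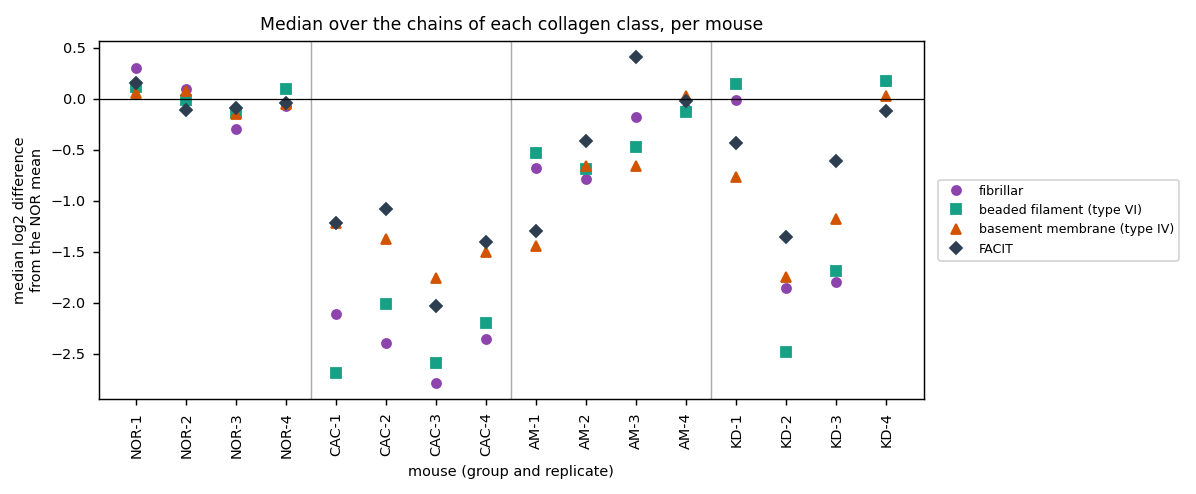
Median log2 difference from the NOR mean over the fibrillar, type VI, type IV and FACIT chains in each of the 16 mice. KD replicates 2 and 3 sit at -1.86 and -1.80 in the fibrillar chains and replicates 1 and 4 at -0.01 and 0.17, while the CAC mice lie between -2.79 and -2.11 and the AM mice between -0.79 and -0.10.

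Markers of several other cell types moved with this spread and those of others did not. In KD replicates 1 to 4 the summed CPM was 1280, 726, 586 and 1472 over 6 fibroblast genes, 219, 35.1, 23.4 and 197 over 4 macrophage genes, 937, 69.2, 97.3 and 706 over 3 adipocyte genes and 145, 0.298, 0.205 and 55.1 over 4 lymphocyte genes. The 6 tendon genes summed to 689, 264, 308 and 498 CPM. Replicates 2 and 3 were thus the low ones for fibroblast, macrophage, adipocyte, lymphocyte and tendon genes as well as for fibrillar collagens, while the muscle fibre genes summed to 94360, 152100, 147600 and 116400 CPM, the 4 endothelial genes to 951, 1185, 1069 and 769 CPM and the 4 Schwann cell genes to 138, 199.9, 367 and 159.6 CPM, with replicates 2 and 3 the high ones. Their part in the result was not tested. No label sets replicates 2 and 3 apart from 1 and 4.

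Against NOR mice, neither AM nor KD mice had a called member in edgeR, where 0% of all genes were called either way in both. DESeq2 and limma-voom also called 0 members, and their shares over all genes are not given here. For AM mice the median log2 fold change was -0.30 over 42 tested members and 0.02 over all genes, with 11 members lower at an unadjusted p of at most 0.05 (4.13% of all genes) and 0 higher (5.06%). All AM mice lay below all NOR mice in Col4a4, Col4a6, Col6a1 and Col6a2, 4 members (2.82% of all genes), and all above them in 0 (2.29%), with -0.51 (FDR 0.518) for Col6a1 and -0.62 (FDR 0.518) for Col6a2. For KD mice the median was -0.46 over 43 members and 0.02 over all genes, with 3 lower at an unadjusted p of at most 0.05 (1.38%) and 0 higher (2.16%). The KD mice all lay below the NOR mice in Col22a1, Col12a1 and Col8a2, 3 members (0.949%), with -0.90 (FDR 0.999), -0.92 (FDR 0.999) and -1.42 (FDR 0.999). No tested member had all KD mice above the NOR mice (1.31%). Col10a1, not tested for lack of counts, did, on 0, 4, 0 and 4 counts in NOR mice and 35, 4, 4 and 559 in KD mice. KD replicates 2 and 3 held as many counts as NOR replicates 2 and 4, so that order rests on library scaling. Between AM and KD mice 0 of 44 chains were called by edgeR, where 0% of all genes were called either way. DESeq2 and limma-voom also called 0 of these chains, with no share over all genes given here. At an unadjusted p of at most 0.05 in edgeR, 0 chains differed, where 0.529% of all genes were higher and 0.576% lower. No member had groups without overlap (0.509% of all genes higher and 0.448% lower), and the median was 0.22 beside 0 over all genes.

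By labelled strain, the log2 fold changes of CAC relative to NOR mice were -3.67 and -3.47 for Col1a1 in C57BL/6 and BALB/c mice, -2.89 and -3.10 for Col3a1 and -2.34 and -2.31 for Col6a1. Those of AM relative to CAC mice were 2.51 and 3.45, 2.26 and 3.07 and 1.57 and 2.05 for the same genes. A test of the difference between labelled strains passed the FDR limit in edgeR for 0 members in any of the 3 comparisons with CAC mice (0% of all genes in each). At an unadjusted p of at most 0.05, 5 of 43, 7 of 41 and 3 of 43 members differed, where 4.89%, 12.4% and 5.65% of all genes did. DESeq2 called 1 member in each (0.852%, 3.31% and 0.706% of all genes), and limma-voom called 0 (share over all genes not given here). The lowest p in the first comparison was that of Col5a3, with log2 fold changes of -2.55 and -1.42 and a difference of 1.18 (unadjusted p = 0.00125 in edgeR, FDR 0.523). In Col22a1 the log2 fold changes in C57BL/6 and BALB/c mice were 0.54 and 2.59 for AM relative to CAC mice and 0.15 and 2.39 for KD relative to CAC mice, with unadjusted p of 0.00470 and 0.00306 in edgeR and FDR of 0.294 and 0.854. With 2 mice a group in each labelled strain, and with the strain labels at odds with Ifi202b, these values describe the labels only.

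Of the cartilage list, Col2a1, Col10a1, Col9a1, Col9a2 and Col9a3 were highest in AM replicate 3 and KD replicate 4, for Col9a1 by a small margin, while Col11a1 was highest in NOR replicate 1 and Col11a2 in AM replicate 3 followed by NOR replicate 1. Over 6 tested members of that list in CAC relative to NOR mice, 3 were lower (Col2a1, Col11a1 and Col11a2, given above) and 0 higher. Over all genes 5.13% were called lower and 4.32% higher. Type IX chains, which coat type II fibrils, were not called by edgeR, while DESeq2 and limma-voom both called Col9a1 lower (FDR 0.0312 and 0.0493) and not Col9a2 or Col9a3. Col9a1 was at 2.61, 3.04, 3.71 and 2.61 CPM in NOR mice and 1.05, 1.25, 0.684 and 0.0316 CPM in CAC mice, with -2.0 ± 0.75 (FDR 0.115), and over the libraries without Ifi202b alone it had a log2 fold change of -1.59 with an FDR of 0.0150. It was near 0 in 3 of the 4 libraries with Ifi202b, being at 0, 1.41, 3.96 and 3.11 CPM in AM mice and 0.0388, 1.96, 2.08 and 4.62 CPM in KD mice. Col9a2 was at 1.63, 1.49, 1.41 and 1.60 CPM and 0.757, 0.918, 0 and 0.158 CPM, with -1.77 ± 0.93 (FDR 0.252), and Col9a3 at 0.466, 0.184, 0.363 and 0.705 CPM and 0.138, 0.269, 0.240 and 0.506 CPM, with -0.56 ± 0.55 (FDR 0.562). Of the exon bases of Col9a3, 6.1% overlap another gene model.

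Col2a1 was at 1.77, 0.0565, 63.5 and 1.76 CPM in AM mice and 2.25, 0.348, 0.502 and 30.3 CPM in KD mice, so that AM replicate 3 and KD replicate 4 stood far above every other library. It was not tested between AM and CAC mice for lack of counts and was not called between KD and CAC mice at 7.13 (FDR 0.267). Col10a1, the chain of growth plate cartilage, was at 0.465, 0.198, 6.68 and 0.0429 CPM in AM mice and 0.678, 0.0993, 0.0744 and 10.2 CPM in KD mice, with at most 0.358 CPM in NOR and CAC mice, and was high in the same 2 libraries. Col9a2 was at 0.465, 1.47, 3.40 and 1.18 and 0.678, 0.571, 1.303 and 2.83 CPM, and Col9a3 at 0.111, 0.226, 2.80 and 0.987 and 0.640, 0.0745, 0.205 and 2.68 CPM. Aggrecan (Acan), the main cartilage proteoglycan, was at 3.18 and 4.13 CPM in AM replicate 3 and KD replicate 4, bone sialoprotein (Ibsp) at 24.9 and 7.17 CPM and osteocalcin (Bglap) at 5.67 and 3.16 CPM. Not all markers of that list followed, with Sox9 at 3.56 and 4.16 CPM there and up to 12.3 CPM in NOR mice, Matn3 at 1.012 and 0.770 CPM and up to 1.17 CPM in NOR mice, and Matn1 at 0 and 0.147 CPM. The sum over 7 cartilage and bone markers was 39.7 and 20.5 CPM in these libraries and 2.60 to 14.5 CPM in the other 14. Their part in the result was not tested.

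**Figure D5:**
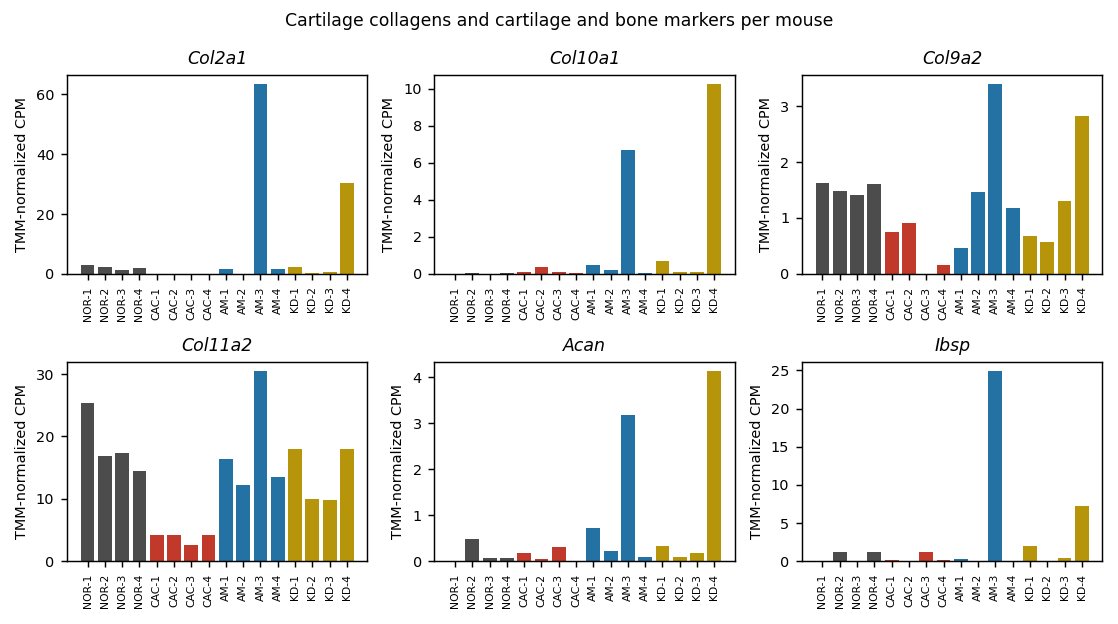
CPM of the cartilage chains Col2a1, Col10a1, Col9a2 and Col11a2 and of the cartilage and bone markers Acan and Ibsp in each of the 16 libraries, as bars from 0. AM replicate 3 and KD replicate 4 hold the highest bars for Col2a1, Col10a1, Acan and Ibsp, with Col2a1 at 63.5 and 30.3 CPM.

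Beside the collagens, markers of cell types were compared in CAC relative to NOR mice, where 5.13% of all genes were called lower and 4.32% higher, 13.6% and 15.5% were lower and higher at an unadjusted p of at most 0.05, and 10.8% were lower without overlap. Of 6 fibroblast genes 1 was called lower (Dpt, dermatopontin, -1.47, FDR 0.00245), 4 were lower at an unadjusted p of at most 0.05, and 3 were lower without overlap. All 6 had log2 fold changes below 0 with a median of -0.76, among them Lum at -1.11 (FDR 0.0613) and Pi16 at -1.04 (FDR 0.0682). The list summed to 1291 to 1392 CPM in NOR mice and 744 to 1315 CPM in CAC mice, of which Dcn, at -0.16, made up most. Of 6 tendon genes 3 were lower (Kera -4.22, FDR 0.00473, Tnmd -3.38, FDR 0.00214, and Fmod -1.77, FDR 0.0129), and the sums were 607 to 977 CPM and 179.5 to 437 CPM, without overlap. No muscle fibre gene of 6 was called by edgeR, with 2 lower at an unadjusted p of at most 0.05, log2 fold changes from -0.89 (Mylpf, FDR 0.0512) to -0.10 and sums of 117100 to 167900 CPM and 52180 to 121600 CPM. The 4 endothelial genes went both ways, with Pecam1 higher (0.77, FDR 0.0126), Tek at 0.39 (FDR 0.196), Cdh5 at -0.08 (FDR 0.823) and Kdr at -0.91 (FDR 0.115, lower at an unadjusted p of at most 0.05), and with sums of 742 to 1174 CPM and 898 to 1266 CPM. Of 7 cartilage and bone genes 2 could be tested and Matn3 was lower (-5.50, FDR 0.00817), with sums of 4.30 to 14.5 CPM and 3.99 to 7.44 CPM. Matn3 was at 0.880, 1.17, 0.988 and 0.7045 CPM in NOR mice and 0, 0, 0 and 0.0632 CPM in CAC mice. The size of its change rests on these values near 0. Among 4 Schwann cell, 4 lymphocyte, 4 macrophage, 3 adipocyte and 1 tested of 3 epidermis genes edgeR called 0, with epidermis sums at 1.82 CPM or less in every library. The sums in NOR and CAC mice were 155 to 182 and 84.9 to 189 CPM for Schwann cell genes, 58.4 to 147 and 102 to 138 CPM for macrophage genes and 75.7 to 697 and 51.3 to 686 CPM for adipocyte genes. In AM relative to CAC mice Dpt was higher (1.25, FDR 0.0133), as were Kera, Tnmd and Fmod (3.47, 2.49 and 1.37), and in AM mice the fibroblast genes summed to 1033 to 1464 CPM and the tendon genes to 497 to 752 CPM. The part of these cells in the collagen result was not tested.

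The genes that process collagen chains were grouped by step, and the counts below stand beside 5.13% of all genes called lower and 4.32% called higher in CAC relative to NOR mice, and 1.63% called higher and 2.03% called lower in AM relative to CAC mice. Of 17 genes that modify and fold the chains in the secretory pathway, 4 were lower in CAC relative to NOR mice and 0 higher, namely Serpinh1, the collagen chaperone (-1.07, FDR 0.00444), P3h3 (-0.91), Colgalt2 (-0.79) and P4ha1 (-0.66). The other prolyl and lysyl hydroxylases of that list did not pass both limits, among them P4hb at 0.47 (FDR 0.0285). In AM relative to CAC mice edgeR called 0 of the 17, with 7 higher and 1 lower at an unadjusted p of at most 0.05 (9.47% and 12.2% of all genes), Serpinh1 being at 0.60 (FDR 0.0559). Of 7 tested genes of propeptide cleavage, 5 were lower and 1 higher, namely Adamts2 (-1.40, FDR 0.00301), Adamts14 (-1.20), Bmp1 (-1.07), Pcolce (-1.05) and Pcolce2 (-0.61) against Tll1 (1.14, FDR 0.0107). In AM relative to CAC mice Adamts2 (1.21), Pcolce (1.11) and Bmp1 (0.88) were higher and no gene of the list was lower.

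Of 5 cross-linking enzymes, Loxl2 (-1.84, FDR 0.00197) and Loxl1 (-0.88) were lower in CAC mice and Lox was higher (1.26, FDR 0.0381), while AM mice had higher Loxl2 (1.31) and Loxl1 (0.73) than CAC mice. Of 9 fibril-associated proteoglycans Kera, Fmod and Ogn (-0.81, FDR 0.0368) were lower, of which Kera and Fmod are also in the tendon list, and Dcn, the abundant decorin, was at -0.16 (FDR 0.559). Of 11 tested genes of collagen breakdown 4 were lower, Mrc2 (-1.22), the uptake receptor for cleaved collagen, Ctsk (-0.98), Mmp2 (-0.91) and the inhibitor Timp2 (-0.80). Another 3 were higher, the neutrophil collagenase Mmp8 (4.69, FDR 0.0229), Mmp9 (1.61) and the inhibitor Timp4 (1.5). Mmp8 was at 0, 0.117, 0.464 and 1.495 CPM in NOR mice and 14.65, 6.34, 9.21 and 24.2 CPM in CAC mice. The size of its change rests on the low NOR values. Of 8 tested collagen receptors Itga11 (-1.39), Itga2 (-1.27) and Ddr2 (-0.89) were lower and 0 higher. Of 11 tested genes of TGF-beta, a main inducer of collagen transcription, and its regulators, edgeR called 0, with 2 higher and 1 lower at an unadjusted p of at most 0.05 in CAC relative to NOR mice (15.5% and 13.6% of all genes) and 0 higher and 3 lower in AM relative to CAC mice (9.47% and 12.2%). The receptor Tgfbr1 passed the FDR limit but not the fold limit, at 0.53 (FDR 0.0107) in CAC relative to NOR mice and -0.54 (FDR 0.0220) in AM relative to CAC mice. In AM relative to CAC mice 2 breakdown genes, Mrc2 (0.92) and Timp2 (0.66), and 1 receptor, Itga11 (1.25), were higher. In KD relative to CAC mice edgeR called 0 genes in all 7 lists, where 0% of all genes were called higher and 0.00685% lower.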

How the data were processed

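RNA from the gastrocnemius of 16 mice was sequenced after oligo(dT) enrichment. The authors deposited whole-number counts per gene and, beside them, FPKM values per gene and library, in which each count is divided by a gene length and the library total. The submitters' processing notes name fastp, Bowtie2, HISAT2 and StringTie 1.3.1 and the builds mm9 and GRCm38, with no role given. Whether counting used strand is not given in the sources used here. Gene positions came from GENCODE M21 (GRCm38), which matched 21905 of the gene identifiers and missed 18.

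Counts of all genes were filtered (filterByExpr, minimum count 10, minimum total 15), scaled by TMM and tested in R 4.3.3 with edgeR 4.0.16 (glmQLFit and glmQLFTest) on the 8 libraries of each comparison, without covariates. Calls needed a Benjamini-Hochberg FDR of at most 0.05 over all genes tested and a fold of at least 1.5 or at most 0.667. The authors used NOISeq with these limits, and edgeR replaced it here. The SE of a log2 fold change is its size divided by the square root of the F statistic. Exact two-sided permutation tests of CPM in 4 against 4 mice cannot go below p = 0.0286, which every pair of groups without overlap gives. Replicates carry separate numbers in the labels with no further word on their origin, so p-values measure only the spread between these libraries, which may in part be technical. No pair of libraries agreed within counting noise.

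The genes and lists were chosen with earlier results of these data known. Chains described mouse by mouse are the 10 with the highest mean FPKM, those called in any comparison, the tested cartilage chains and the trimer partners of these. Col19a1 and Col10a1 are outside that rule and were given mouse by mouse after their values were seen. Limma 3.58.1 (voom), DESeq2 1.42.0, other normalizations and filters, a replicate block, strain terms, single strains and leaving out each library were tried as alternatives. The scripts were tested on simulated data in which 200 of 15220 genes were changed 4-fold. Of these, 71.5% were recovered for CAC against NOR, 70.5% for AM against CAC and 73% for KD against CAC mice. False calls numbered 5, 9 and 11. A missing call therefore does not show that a gene was unchanged. Promoter sequences are from RefSeq (GRCm38.p6). Figures and summaries were made with data.table (1.17.8), Python 3.11.15, pandas 2.3.3, numpy 2.4.6 and matplotlib 3.10.9.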

Additional observations from a re-analysis of the deposited data

Results flagged for a closer look

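In a search of 140 sets of 4 values (a chain in a group), 8 held a mouse set apart from the other 3 by more than Dixon's 95% limit on the gap as a share of the group's range, where chance gives about 1 in 20 such sets. In NOR mice this was Col22a1 in replicate 1, at 51.54 CPM beside 27.8 to 31.4 CPM. In CAC mice it was Col3a1 in replicate 1, at 168.6 CPM beside 89.5 to 98.9 CPM, and Col26a1 in replicate 1, at 0.7567 CPM beside 0.130 to 0.224 CPM. Col24a1 in CAC replicate 2 was at 2.261 CPM beside 0.825 to 0.948 CPM. In CAC replicate 3, Col1a2 was at 67.42 CPM beside 109 to 116 CPM and Col11a2 at 2.59 CPM beside 4.19 to 4.27 CPM. Col2a1 was at 63.5 CPM in AM replicate 3, beside 0.0565 to 1.77 CPM in the other AM mice, and at 30.34 CPM in KD replicate 4, beside 0.348 to 2.25 CPM in the other KD mice.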

How the results depend on the processing

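In CAC relative to NOR mice, leaving out 1 library at a time gave 24 to 26 lower calls among collagen chains and a median log2 fold change of -1.68 to -1.53. The labelled C57BL/6 mice alone gave 14 lower calls and the BALB/c mice alone 0, and the median with limma-voom was -1.93. Log2 fold changes of Col1a1, Col3a1, Col6a1 and Col4a1 were -3.67, -2.89, -2.34 and -1.19 in C57BL/6 mice. In BALB/c mice they were -3.47, -3.10, -2.31 and -0.20. Shares over all genes are not given here for single strains, fits without 1 library, the fit of 16 libraries, lymphocyte-marker libraries or an FDR limit of 0.1. Call counts of these settings cannot be set beside all genes. In AM relative to CAC mice, leaving out 1 library gave 12 to 15 higher calls and a median of 1.20 to 1.49. Higher calls numbered 11 when all 16 libraries shared 1 fit, 0 with the replicate block, 0 in C57BL/6 mice alone (median 0.88) and 0 in BALB/c mice alone. They numbered 4 over the libraries with lymphocyte markers and 0 over the libraries without Ifi202b, both sets being chosen after seeing the data. Log2 fold changes of Col1a1, Col3a1 and Col6a1 were 2.51, 2.26 and 1.57 in C57BL/6 mice and 3.45, 3.07 and 2.05 in BALB/c mice. A lower call appeared once with DESeq2 and once with an FDR limit of 0.1, 1 in each. In KD relative to CAC mice, DESeq2 gave 9 higher calls (1.7% of all genes). The edgeR fit of all 16 libraries gave 5, with no share over all genes given here. Leaving out 1 library gave 0 and a median of 0.83 to 1.32. The median of AM relative to NOR mice was -0.42 to -0.21 without 1 library and -0.71 in C57BL/6 mice alone, that of KD relative to NOR mice -0.75 to -0.36 and that of AM relative to KD mice -0.02 to 0.53. The difference between labelled strains gave 1 call with DESeq2 in each of 3 comparisons.

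Some chains that were not called changed sign. Col4a6 in AM relative to CAC mice was -0.47 with limma-voom, -0.42 with the replicate block and -0.35 to 0.80 without 1 library. In KD relative to CAC mice, leaving out 1 library gave -0.05 to 0.76 for Col4a4, -0.36 to 1.5 for Col4a6 and -1.27 to 0.80 for Col6a4, the lowest values coming without KD replicate 4 for both type IV chains and without KD replicate 1 for Col6a4. Col6a4 was also -0.06 with a strain covariate and -1.68 over the libraries without Ifi202b, where Col6a5 was -0.08. The cause was not tested. Replicate numbers were not taken to pair the libraries, since no pair of groups had all 4 same-number correlations of deviations over 0.1. They were -0.24 to 0.68 in CAC and NOR mice (3 of 4 over 0.1), -0.56 to 0.07 in AM and CAC mice, -0.70 to -0.30 in KD and CAC mice, -0.43 to -0.14 in AM and NOR mice, -0.64 to 0.50 in KD and NOR mice and 0.07 to 0.51 in AM and KD mice (2 of 4 over 0.1), where 2 of 4 libraries correlated best with their own number. The replicate block left 25 lower calls (median -1.68) in CAC relative to NOR mice and 0 in KD relative to CAC mice (median 0.93). With 4 mice a group, chains of few counts, among them Col2a1, Col10a1, Col25a1 and Col4a6, cannot show small differences at this depth.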
